A study of Mus musculus with 2 samples.

Results

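The genes described here are 9 markers of neuroendocrine cells: the granins Chga, Chgb, Scg2, Scg3 and Scg5, the vesicle proteins Snap25 and Syp, and the transcription factors Insm1 and Neurod1. They were chosen by name, with earlier results of these data known, and each was read from the probe set annotated to that gene alone. All 9 had exactly 1 such probe set, out of 19937 genes named on the array. RNA came from medullary thymic epithelial cells (mTEC) of B6 mice aged 6 weeks, sorted as EpCAM+, CD45-, Ly51low and MHC-II low, the gate that the labels call mTEClo. Both groups carried homozygous floxed HDAC3 alleles. The group labelled WT had no Cre, and the group labelled HDAC3cKO also carried Foxn1-Cre, which acts in thymic epithelium, cortical as well as medullary. Each group was 1 array, made from about 30000 sorted cells, and 10 to 30 mice were typically pooled for the HDAC3cKO sort.

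Neuroendocrine cells are scattered epithelial cells that store peptide hormones and amines in dense-core granules and release them on a calcium signal. Granins are acidic proteins that aggregate in the trans-Golgi network, help form those granules, and are cut by prohormone convertases into peptides. Insm1 and Neurod1 act downstream of proneural factors to switch endocrine genes on, while in most other cells the repressor REST keeps many neuronal and secretory genes silent. The thymic medulla contains small groups of cells that resemble differentiated cells of peripheral tissues, neuroendocrine cells among them, and mTEC also express many tissue-restricted antigens individually.

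All 9 genes were lower on the HDAC3cKO-labelled array than on the WT-labelled array, as deposited and after median centring, quantile normalization and loess scaling. The median difference was -0.92 on the log2 scale, or 1.89-fold, against a median of 0.01 over all 19937 named genes. Differences ran from -2.12 for Snap25 to -0.36 for Chga. Of the 9 genes, 3 were at least 2-fold lower (Snap25, Chgb and Scg2) and none was 2-fold higher. Scg3 and Neurod1 were dim on both arrays, so their signal may be background. Over all named genes 5.88% were at least 2-fold lower, 2.97% at least 2-fold higher and 48.3% below 0. A single array per group leaves no replicate error and allows no test, so the values are descriptive, and "lower" and "higher" describe these 2 arrays. Differences are log2 intensity on the HDAC3cKO-labelled array minus log2 intensity on the WT-labelled array, and the number of arrays limits the precision.

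**Figure D1:**
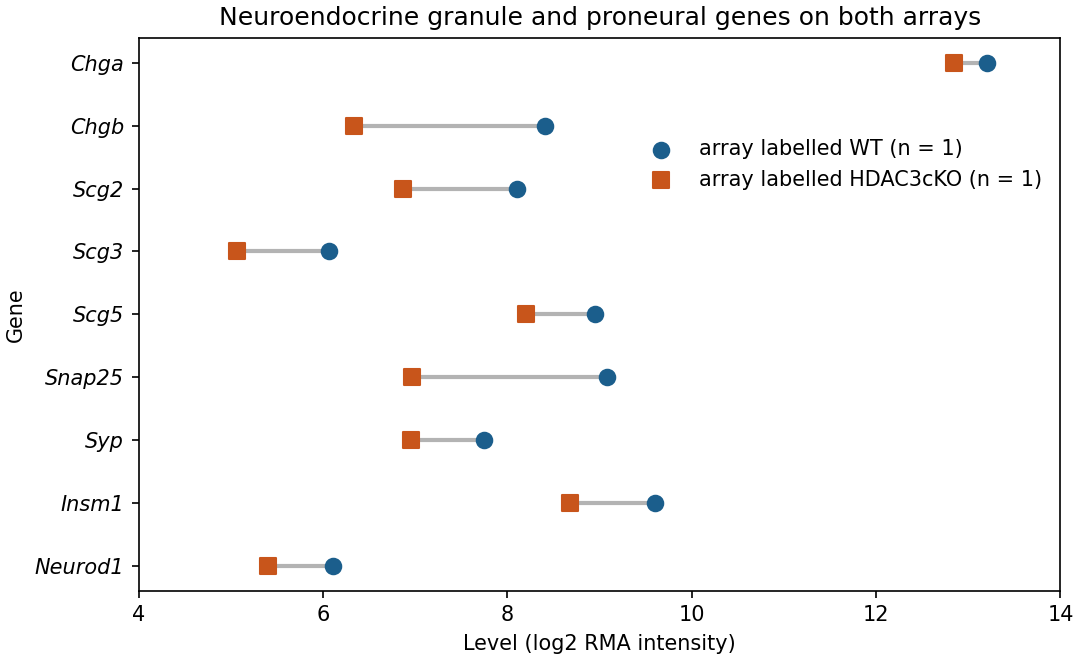
Level of each gene (log2 RMA intensity, horizontal axis) on the WT-labelled array (blue circles) and the HDAC3cKO-labelled array (orange squares), 1 array each, with a grey line joining both values of a gene. Each square lies to the left of its circle, with the longest lines for Snap25 (9.08 to 6.97) and Chgb (8.41 to 6.34) and the shortest for Chga (13.20 to 12.84). Levels of different genes come from different probes and are not comparable with each other.

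Several facts of these arrays bear on every value. Hdac3 itself was at log2 levels of 10.90 (WT-labelled) and 11.64 (HDAC3cKO-labelled), which goes against the label. Which exons the floxed allele loses is not stated in the labels, and a probe set over retained exons would not check the deletion. An exchange of the labels could not be checked either and would turn every direction given here. Epithelial markers were present on both arrays, with Epcam at 11.33 and 11.06 and Foxn1 at 9.68 and 9.81. Of 11 medullary epithelial markers, 5 were at least 2-fold lower and 9 below 0. Their median was -0.85, and their summed intensities were 27673 and 20106. They were led by Fezf2, a regulator of tissue-restricted antigens, at 7.85-fold, Cldn3 at 2.62-fold and Krt14 at 2.57-fold, and their part in the values of the 9 genes was not tested. Ptprc, which encodes the CD45 antigen excluded in the sort, was at 9.63 and 8.79. The class II gene H2-Aa was at 13.30 and 13.31 although the gate was low for MHC-II. In pooled RNA, fewer cells of a type and less RNA per cell cannot be told apart.

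Among the granins, Chgb and Scg2 were past 2-fold and Chga differed least. Chgb, which encodes chromogranin B, was at 8.41 (WT-labelled) and 6.34 (HDAC3cKO-labelled), a difference of -2.08 or 4.22-fold. Scg2, which encodes secretogranin II, the precursor of secretoneurin, was at 8.10 and 6.86, a difference of -1.24 or 2.36-fold. Of these, Chgb lay lower in the range of all genes: 1.68% of named genes had a lower difference than Chgb and 4.36% a lower one than Scg2.

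Scg3, whose product secretogranin III anchors granin aggregates to the granule membrane, was at 6.06 and 5.06. Its difference of -0.9996 was just short of the 2-fold threshold, and it crossed the threshold after quantile normalization (-1.02) and loess scaling (-1.04). After median centring the difference was -0.95, and with a pseudocount of 32 added to the intensities it was -0.59. Scg3 had the lowest mean level of the 9 genes. Scg5, which encodes the chaperone 7B2 of the convertase PC2, was at 8.95 and 8.20, a difference of -0.74 or 1.68-fold.

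Chga, which encodes chromogranin A, was at 13.20 and 12.84, a difference of -0.36 or 1.28-fold, with 17.5% of all named genes lower than that. Chromogranin A is also a main secretory protein of the parathyroid, and ectopic parathyroid transcripts are known in thymus. Pth, the parathyroid hormone gene, was at 13.24 (WT-labelled) and 13.45 (HDAC3cKO-labelled), a difference of 0.20, and the calcium-sensing receptor gene Casr was at 10.46 and 8.76, a difference of -1.69. Over the 3 measured parathyroid markers the summed intensity was 11557 (WT-labelled) and 11918 (HDAC3cKO-labelled). Pth was the brightest of the 3 on both arrays, so this sum mainly follows Pth. Counted by gene, 2 of the 3 markers were below 0 and 1 was above, and the middle difference was -0.52. Casr was the only marker of the 3 past 2-fold. The part of parathyroid transcripts in the Chga value was not tested.

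The granin promoters are shown because the 5 granins share a sequence feature there while their differences ranged from -2.08 to -0.36. The RefSeq promoter table (GRCm38.p6) held windows for 7 of the 9 genes, all but Snap25 and Insm1, each from 250 bases before to 50 bases after a transcript start. The cyclic AMP response element (CRE), bound by CREB-family factors, has the full form TGACGTCA and the core TGACG. Searched on both strands, with the core counted also inside the full form, TGACG occurred in the windows of all 5 granins, in neither of the other 2 windows, Syp and Neurod1, and in 20.8% of all 32851 windows. The full form occurred in Chgb and Scg2 and in 1.79% of all windows. Chgb and Scg2 were also the granins past 2-fold, but 2 genes cannot show a relation, and a match is a description of the letters only. The 250 bases before the start are printed 5′ to 3′ on the gene's strand, with TGACG or its reverse complement in capitals, for Chga (chr12:102554691-102554940, plus strand), Chgb (chr2:132781392-132781641, plus strand) and Scg2 (chr1:79440027-79440276, minus strand).
Chga: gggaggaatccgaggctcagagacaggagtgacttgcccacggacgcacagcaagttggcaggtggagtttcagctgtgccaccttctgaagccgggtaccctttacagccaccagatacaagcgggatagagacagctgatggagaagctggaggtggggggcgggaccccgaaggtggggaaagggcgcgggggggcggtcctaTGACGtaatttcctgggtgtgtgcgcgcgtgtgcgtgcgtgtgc
Chgb: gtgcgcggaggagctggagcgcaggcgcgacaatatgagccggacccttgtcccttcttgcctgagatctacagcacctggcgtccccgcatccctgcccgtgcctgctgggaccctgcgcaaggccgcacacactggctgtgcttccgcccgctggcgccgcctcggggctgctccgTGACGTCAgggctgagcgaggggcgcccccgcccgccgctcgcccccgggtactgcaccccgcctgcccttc
Scg2: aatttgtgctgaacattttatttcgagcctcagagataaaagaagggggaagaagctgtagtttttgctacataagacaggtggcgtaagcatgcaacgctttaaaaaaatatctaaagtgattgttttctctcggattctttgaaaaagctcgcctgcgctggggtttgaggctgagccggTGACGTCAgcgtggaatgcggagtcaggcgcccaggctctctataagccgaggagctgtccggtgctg

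In these 3 windows the element began at position -72 in Chgb, -68 in Scg2 and -44 in Chga, counted from the transcript start. In Scg3 a core began at position -30, and in Scg5 one began at position -175 and others after the start, at positions 19 and 40. The full RE1 element, which REST binds, matched none of the 7 windows and 0.0639% of all windows. Scg2 alone held its left part TTCAGCACC, found in 0.371% of all windows, and its right part GGACAG, found in 22.2%. Both were on the strand opposite to the gene, beginning at positions -7 and -13. There they abutted, whereas the full element as searched has a spacer between its parts, so Scg2 did not match it. The NeuroD-type E-box CAGATG was in none of the 7 windows and in 17.2% of all, while CAGCTG was in Chga and Chgb and in 16.3% of all. Any E-box of the form CANNTG was in 5 of the 7 windows and in 72.3% of all. The exact letters TATAAA, a form of the TATA box, were in Chga alone of the 7 and in 13.6% of all windows. In Chga they began at position 5, after the transcript start. Variants of these letters were not searched. Before the start, Scg2 held TATAAG and Neurod1 held TATATAA, so the search does not show which genes have a TATA box.

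The vesicle proteins differed from each other in size. Snap25, the plasma membrane SNARE that drives fusion of synaptic vesicles and dense-core granules, was at 9.08 (WT-labelled) and 6.97 (HDAC3cKO-labelled). That difference of -2.12, or 4.34-fold, was the lowest of the 9, with 1.58% of named genes below it. Syp, which encodes synaptophysin, a membrane protein of small vesicles and a routine marker of neuroendocrine tumours, was at 7.74 and 6.95, a difference of -0.79 or 1.73-fold.

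Both transcription factors were lower and neither passed 2-fold. Insm1, a zinc finger factor needed for endocrine differentiation, was at 9.60 and 8.68, a difference of -0.92 or 1.89-fold. Neurod1, a basic helix-loop-helix factor of endocrine and neuronal cells, was at 6.10 and 5.41, a difference of -0.70 or 1.62-fold. Both levels were under the array medians of 7.52 and 7.47, and with a pseudocount of 32 the difference was -0.44.

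**Figure D2:**
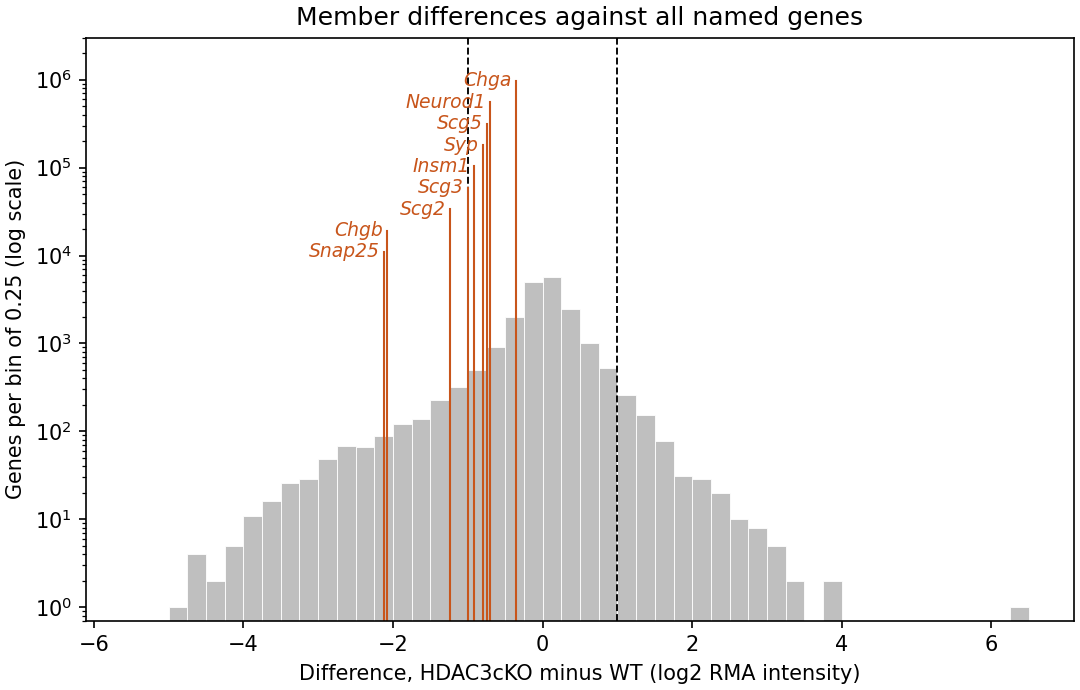
Differences of all 19937 named genes (HDAC3cKO minus WT, log2 RMA intensity) in bins of 0.25, with the number of genes per bin on a log axis. Orange lines mark the 9 genes, their heights being staggered for the labels only, and dashed lines mark 2-fold. Snap25 and Chgb lie at -2.12 and -2.08, Scg2 at -1.24, and the other 6 genes between -0.9996 and -0.36.

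How many genes counted as lower depended on the size asked for. At 1.5-fold, 8 of the 9 were lower, all but Chga, against 11.2% of all named genes. At 3-fold, 2 were lower, Snap25 and Chgb, against 2.88% of all named genes. Taking the mean over both arrays, 6 of the 9 had a level under 8.03, the median over all named genes, among them the 3 past 2-fold. Among all genes under that level 5.02% were at least 2-fold lower. This mean includes the lower array, so a large difference itself moves a gene under the line: on the WT-labelled array alone Snap25 (9.08), Chgb (8.41) and Scg2 (8.10) were above it. The split therefore does not show that dimmer genes differed more. The table spans log2 levels from 3.44 to 14.86 and has no detection calls. Folds of dim probe sets can therefore understate a difference, and a low value does not mean that the gene was off. Nor does it show that the gene was on, since a dim probe set may report background. Whether Scg3 (6.06 and 5.06) and Neurod1 (6.10 and 5.41) were detected at all is not known, so their direction is weak.

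**Figure D3:**
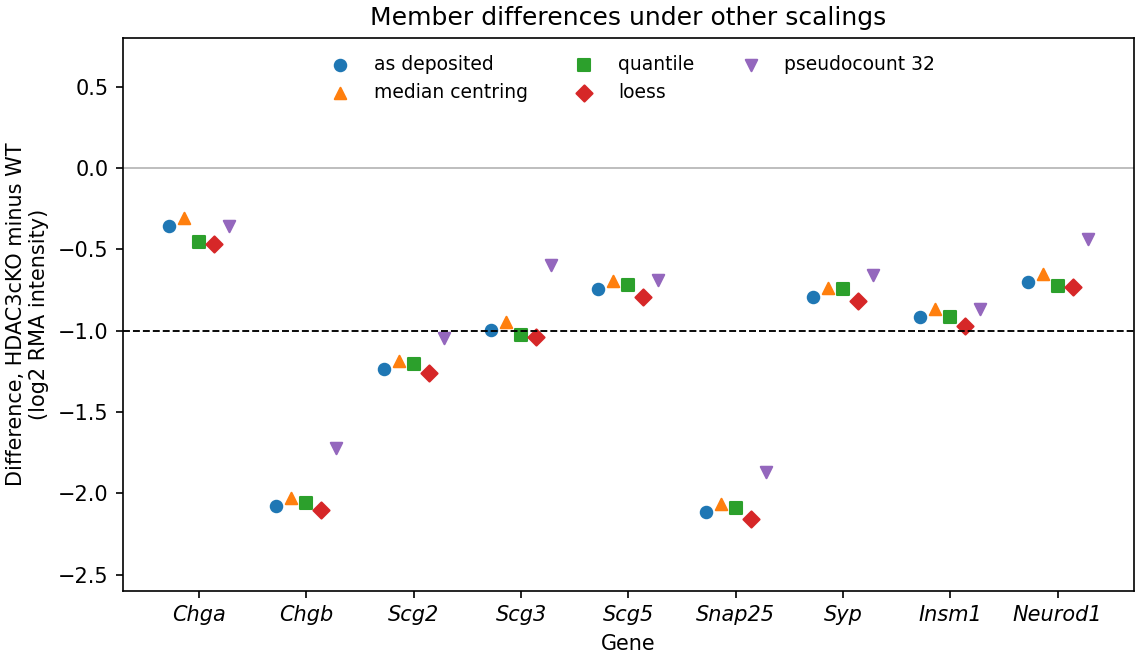
Difference of each gene (HDAC3cKO minus WT, log2 RMA intensity) as deposited, after median centring, quantile normalization and loess scaling, and with a pseudocount of 32 added to the intensities; the dashed line marks 2-fold lower. All points lie below 0, and Scg3 is the gene that the rescalings place on either side of the 2-fold line.

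Beyond the 9 genes, 8 lists of 142 genes were read, of which 132 were measured. They cover granule machinery as well as transcription factors, the REST complex, hormones and other neuroendocrine and neuronal markers. In the 6 lists of secretory and endocrine genes, 27 of 110 measured genes (24.5%) were 2-fold or more lower, and Sv2b alone was 2-fold higher. The other 2 lists, general SNAREs and the REST complex, had 1 of 22 genes at least 2-fold lower and none 2-fold higher. These shares stand beside 5.88% lower and 2.97% higher over all named genes. The lists were chosen with earlier results of these data known, so the shares are descriptive and no independent support. Of the 110 genes, 75 had a mean level under 8.03. All 12 genes of the general SNARE list and 9 of 10 REST complex genes were at or above it.

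Of 11 measured genes of prohormone processing and granin relatives, 4 were at least 2-fold lower and none higher, with a median of -0.48. Resp18, an endocrine-specific protein of the regulated secretory pathway, was at 8.82 and 6.15, a difference of -2.67 or 6.37-fold. Pcsk1, the convertase PC1/3 that cuts prohormones in granules, was at 7.43 and 5.73, or 3.23-fold lower. Ptprn2, a granule membrane protein of the IA-2 family, was 2.18-fold lower, and Pam, which amidates peptide hormones, 2.08-fold lower. Among the 7 genes not past 2-fold, differences ran from -0.61 for Ptprn to 0.47 for Cpd. The carboxypeptidase gene Cpe differed by 0.10, the granin relative Vgf by -0.14 and the convertase inhibitor gene Pcsk1n by -0.17. Within this list, Pcsk1 was past 2-fold while Cpe was close to no difference.

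Of 24 measured genes of regulated vesicle release, 5 were at least 2-fold lower and 1 higher, with a median of -0.43. Syt1, a calcium sensor for vesicle fusion, was at 11.56 (WT-labelled) and 8.12 (HDAC3cKO-labelled), a difference of -3.44 or 10.9-fold. Cadps2 and Cadps, which encode the CAPS proteins that prime dense-core granules, were 6.09-fold and 4.74-fold lower. Rims2, an active-zone scaffold, was 3.24-fold lower, and Rab27b, a small GTPase of granule docking, differed by -1.32. In the opposite direction, Sv2b, a vesicle glycoprotein of the SV2 family, was at 9.14 and 11.42, or 4.86-fold higher, while its relative Sv2c differed by -0.89 and Sv2a by 0.27. Stx1a, the syntaxin that pairs with Snap25, differed by -0.13.

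The list of SNAREs of general membrane fusion, which also holds the syntaxin-binding protein genes Stxbp2 and Stxbp3, had a median of 0.09 over 12 measured genes. Of these 12, 1 was 2-fold lower, the endosomal syntaxin Stx7 at 2.01-fold. Snap23, the widely expressed relative of Snap25, was at 11.54 and 11.85, a difference of 0.31 against -2.12 for Snap25.

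Of 24 measured endocrine and proneural transcription factors, 5 were at least 2-fold lower and none higher, with a median of -0.17. St18, a MYT-family zinc finger factor, was at 9.57 and 6.88, or 6.44-fold lower. Rfx6, which is required for pancreatic islet cells, was at 8.05 and 5.43, or 6.15-fold lower. Foxa1, a pioneer factor of endodermal epithelium, was 3.85-fold lower, the homeobox gene Prox1 3.33-fold lower and Hes6, a Hes-family gene of neural differentiation, 3.30-fold lower. The proneural gene Neurog3 differed by -0.27, at levels of 6.39 and 6.11. Isl1, a LIM homeobox factor of islet cells, differed by 0.83 in the other direction.

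Genes of the REST complex were close to 0. Rest, the repressor itself, was at 9.10 and 9.19, a difference of 0.09. None of 10 measured genes of the complex passed 2-fold in either direction, with a median of 0.04 and a range from -0.41 for Ehmt2 to 0.49 for Rcor3.

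Of 23 measured genes of peptide hormones, 6 were at least 2-fold lower and none higher, with a median of -0.13. Sst, which encodes somatostatin, was at 10.09 and 7.54, or 5.84-fold lower. Iapp, which encodes the islet peptide amylin, was at 11.06 and 9.32, or 3.34-fold lower, and the enkephalin gene Penk was 2.74-fold lower. Grp, the gastrin-releasing peptide gene and a marker of lung neuroendocrine cells, was at 10.68 and 10.83, a difference of 0.15. The hormone genes thus varied, with Sst lower and Grp close to level.

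Of 10 measured genes of monoamine synthesis and loading, 2 were just past 2-fold lower and none was higher, with a median of -0.35. Slc18a1, the vesicular monoamine transporter of endocrine cells, was 2.03-fold lower, and Ddc, the decarboxylase that makes serotonin and dopamine, 2.01-fold lower. Neither was past 2-fold after median centring. Of 18 other neuroendocrine and neuronal markers, 5 were at least 2-fold lower and none higher, with a median of -0.54. Cacna2d1, a calcium channel subunit, was 4.09-fold lower, the adhesion molecule gene Ncam1 (CD56) 3.85-fold lower and the RNA-binding protein gene Celf3 2.67-fold lower. Dner, a non-canonical Notch ligand, and Dll3, a divergent one, were 2.46-fold and 2.10-fold lower. Uchl1, the ubiquitin hydrolase PGP9.5, was at 6.95 and 7.48, a difference of 0.53.

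**Figure D4:**
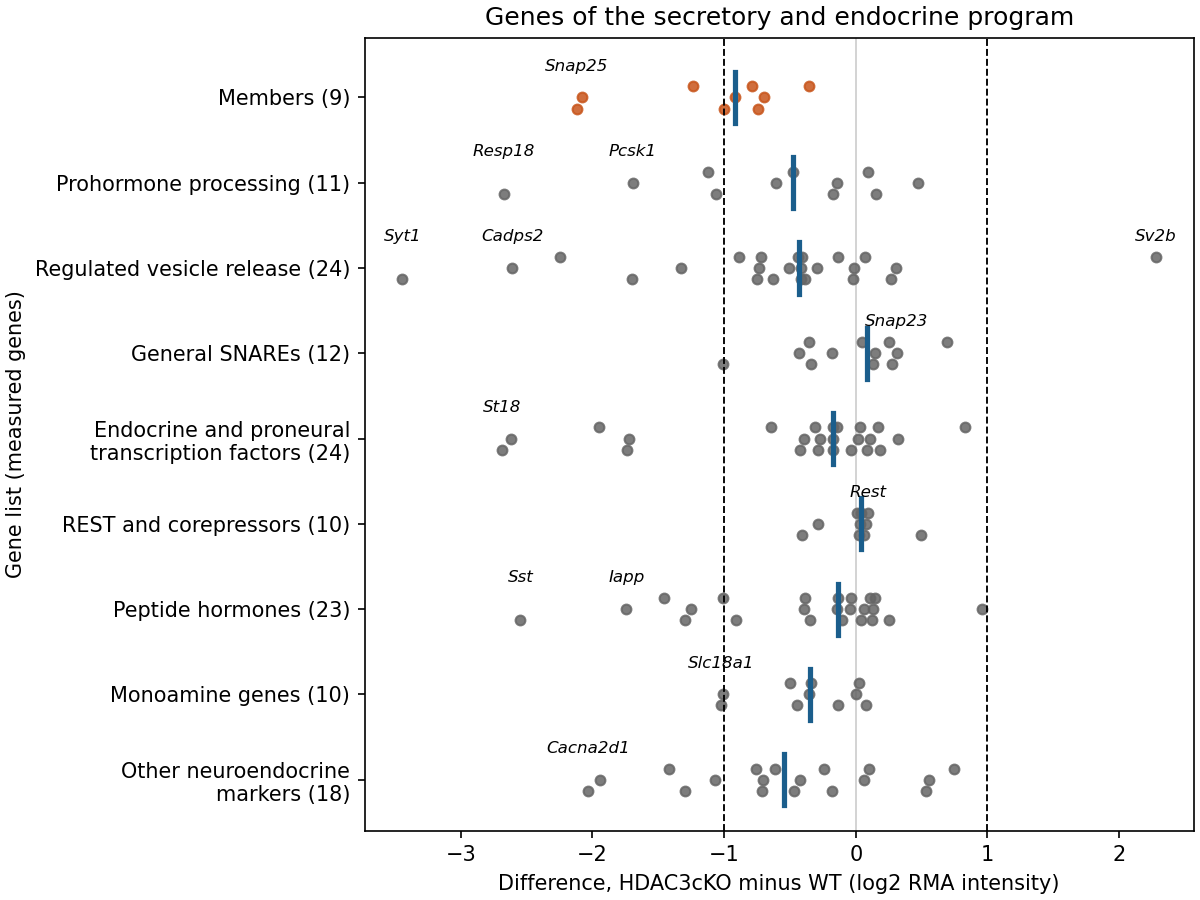
Differences (HDAC3cKO minus WT, log2 RMA intensity) of the 9 genes (orange) and of the measured genes of 8 lists (grey), 1 point per gene with the number of genes in brackets. Blue bars are medians and dashed lines mark 2-fold. The 9 genes have a median of -0.92. Medians of the 6 secretory and endocrine lists run from -0.54 to -0.13, and general SNAREs and the REST complex centre on 0.09 and 0.04. In the vesicle release list, Syt1 at -3.44 and Sv2b at 2.28 lie at opposite ends.

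Marker genes of other cells differed between the arrays as well. All 12 measured tuft cell markers were at least 2-fold lower, and their summed intensity was 40760 (WT-labelled) and 3604 (HDAC3cKO-labelled). Of 12 ciliated cell markers, 7 were at least 2-fold lower, with summed intensities of 3994 and 1889. Of 15 macrophage and dendritic cell markers, 5 were at least 2-fold lower (16349 and 6903), of 12 thymocyte markers 2 (6317 and 4293), and of 7 B cell markers 2 (1917 and 865). Below 0 were 11 of the ciliated, 14 of the macrophage and dendritic, 9 of the thymocyte and 6 of the B cell markers. Medians were -3.52 for tuft, -1.06 for ciliated, -0.89 for macrophage and dendritic, -0.33 for thymocyte and -0.32 for B cell markers. Of 10 endothelial markers, 7 were at least 2-fold higher (7833 and 16992), and of 10 fibroblast markers 4 (7128 and 16477). Their medians were 1.06 and 0.80.

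Neurons also express Snap25, Syp and granins. Of 10 measured nerve and glial markers, 1 was at least 2-fold lower, the neurofilament gene Nefl at 3.59-fold, 6 were below 0, and the summed intensity was 2388 (WT-labelled) and 2495 (HDAC3cKO-labelled). Without Ngfr, a receptor gene at 9.71 and 10.27 that was left out after its values were seen, the sum over the other 9 was 1553 and 1263. That lower sum mainly follows Nefl, at 8.17 and 6.32, while the rest differed by -0.28 (Mbp) to 0.15 (Sox10). The Schwann cell factor gene Sox10 was at 7.28 and 7.44. The part of these other cells in the values of the 9 genes was not tested.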

How the data were processed

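RNA of sorted mTEC was hybridized to Affymetrix Mouse Gene ST arrays, 1 per genotype. The deposited values are intensities on a linear scale, made with RMA per the submitters' processing notes; its version, settings and the set of arrays normalized together are not stated there. Intensities were transformed to log2 with no pseudocount or rescaling. The table has 34760 probe sets. A single symbol was annotated for 21640 of them and several for 1321, which were left out with the unnamed rest. Matching Entrez identifiers to a RefSeq table covered 21553 and changed no symbol. The probe set with the highest mean represented a gene. No test was possible with 1 array per group, so genes were counted at 2-fold.

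The 9 genes and all lists were chosen with earlier results of these data known. The named genes are the 9, up to 3 each way past 2-fold per list, and a set named whatever their values, some of which were not analysed here. Pam, Rims2, Rab27b, Prox1, Hes6, Ptprn, Cpd, Ngfr, Dner, Dll3, Sv2a, Sv2c, Pcsk1n, Neurog3, Isl1, Grp, Ehmt2 and Rcor3, the parts of the RE1 element and the genes of the closing section were picked after their values were seen. Counting and scaling were tested on simulated data with equal numbers of raised and lowered genes. On these arrays more genes were 2-fold lower than higher, a setting that the simulation does not cover. Scripts ran under Python 3.11.15 with pandas 2.3.3, numpy 2.4.6, matplotlib 3.10.9 and, for loess, statsmodels 0.14.6.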

Additional observations from a re-analysis of the deposited data

How the results depend on the processing

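The 9 differences were recomputed after median centring, quantile normalization, loess scaling (span 0.3), averaging or taking the lowest-mean probe set, and with a pseudocount of 32. All 54 recomputed values were below 0, from -2.16 to -0.31, and within 1.5-fold of the reported ones. Choosing probe sets differently changed nothing for the 9, which have 1 each. The count of 3 genes at least 2-fold lower became 8 at 1.5-fold and 0 among the 3 genes at or above the level filter, by the construction of those alternatives (the filter averages both arrays). The mean difference was -1.10. Of 96 list counts recomputed, 89 stayed within 1.5 times. General SNAREs past 2-fold lower went from 1 to 0 after median centring and with the pseudocount. Monoamine genes went from 2 to 0 after median centring, quantile normalization and with the pseudocount. Other neuroendocrine markers went from 5 to 3 with the pseudocount, and peptide hormones 2-fold higher from 0 to 1 after median centring. Those genes lay close to the threshold or at low intensity. No paired analysis was possible because each group has 1 array.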

Other observations

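A few endocrine and neuronal genes were higher on the HDAC3cKO-labelled array while their lists had medians below 0. The hormone gene Cck was at log2 levels of 7.23 (WT-labelled) and 8.19 (HDAC3cKO-labelled), a difference of 0.96, just under 2-fold. Stmn2, a regulator of microtubules in neurons, was at 7.81 and 8.37. Among Notch ligand genes of the neuroendocrine marker list, Dll1 was at 8.54 and 9.29, whereas Dll3 was at 7.36 and 6.29. In the list of general SNAREs, which had a median of 0.09, Snap47 was at 9.64 and 10.33, a difference of 0.69.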
